A study of Nannochloropsis oceanica with 18 samples.

Results

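The plastid genes cp-tufA and cp-rpoA of the marine alga Nannochloropsis oceanica, tufA and rpoA below, are described here. They were taken by name, as 2 of the 125 plastid genes and of the 10493 genes in all, and both passed the filter on low counts. They were chosen with earlier results of these data in view. Both were chosen by their counts in the overexpression-labelled strain against wild type, where tufA was called lower at both light levels and rpoA at high light. The normal-light call of tufA was lost without NL_OE replicate 3 or NL_WT replicate 1. The call of rpoA was lost without HL_WT replicate 1, without HL_OE replicate 1 and without HL_OE replicate 2, and limma on TPM did not make it (adjusted p = 0.147). That contrast is therefore a description here and supports nothing.

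The 18 libraries came from strain IMET1, a unicellular oil-storing alga, in 6 groups of 3 flask cultures that the labels call biological replicates. Wild type (WT), a strain labelled NO07G02030-ko (KO, a knockout of that nuclear gene) and a strain labelled NO07G02030-oe (OE, an overexpressor of it) were each kept for 8 days at 25 °C with shaking at 200 rpm. Normal light (NL) was set near 50 and high light (HL) near 300 µmol photons m-2 s-1. All 6 groups thus shared the strain background, the f/2 medium and the culture scheme. The sources used here do not give how the KO and OE strains were made or whether each is 1 clone. The labels enter the cells as "Colonial" and the molecule as polyadenylated RNA. Libraries held 14614662 to 18156737 counts, and between 522 and 3816 of them fell on plastid genes. NO07G02030 itself was called neither lower in KO nor higher in OE against WT at either light level (log2 fold changes -0.37 and 0.44 for KO and -0.20 and 0.41 for OE, adjusted p from 0.155 to 0.554, edgeR). KO and OE are used here as labels, and whether the product of that gene was lost or raised was not tested.

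A plastid keeps a small genome and its own machinery for reading it. EF-Tu, the product of tufA, carries each charged tRNA to the plastid ribosome during translation. The product of rpoA is the alpha subunit on which the bacterial-type plastid RNA polymerase assembles, while rpoB, rpoC1 and rpoC2 encode the beta and beta-prime parts that hold the catalytic centre. In land plants the tufA gene has moved to the nucleus, whereas algae with red-lineage plastids such as this one keep it in the plastid genome. Plastid transcripts are not stably polyadenylated as nuclear messenger RNAs are. How far the plastid RNA kept by the library protocol varied between libraries was not tested, and in bulk cultures fewer cells holding an RNA and less of that RNA per cell cannot be told apart.

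The transcript of tufA was the second most abundant of the plastid genes by total counts, after psbA, the photosystem II reaction centre gene. It held 2140 counts over the 18 libraries, 7.30% of all plastid counts, and psbA held 13088. Within single libraries it ranked between 2 and 10 among the 125 plastid genes, and ranked 2 in 8 libraries. rpoA was a scarce transcript with 185 counts in all, rank 19 over all libraries. Its rank in single libraries ran from 11 to 47.

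In WT at normal light tufA had 140, 100 and 89 counts in replicates 1 to 3, or 9.66, 6.23 and 5.20 CPM (counts per 1000000 of the TMM-scaled library size). In WT at high light it had 307, 88 and 148 counts, or 22.1, 5.06 and 8.60 CPM. HL_WT replicate 1 stood above the other WT libraries, and the ranges of the light levels overlapped. In KO at normal light the counts were 111, 153 and 259 (6.60, 11.4 and 18.9 CPM), and in KO at high light 68, 321 and 251 (4.15, 24.2 and 17.2 CPM). The KO libraries overlapped those of WT at both light levels, and HL_KO held both the lowest and the highest value of all WT and KO libraries. In OE at normal light tufA had only 28, 31 and 18 counts (1.59, 1.68 and 0.95 CPM). In OE at high light it had 9, 6 and 13 counts (0.491, 0.327 and 0.686 CPM). All 6 OE libraries lay below all 12 others, and every HL_OE library lay below every NL_OE library.

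**Figure D1:**
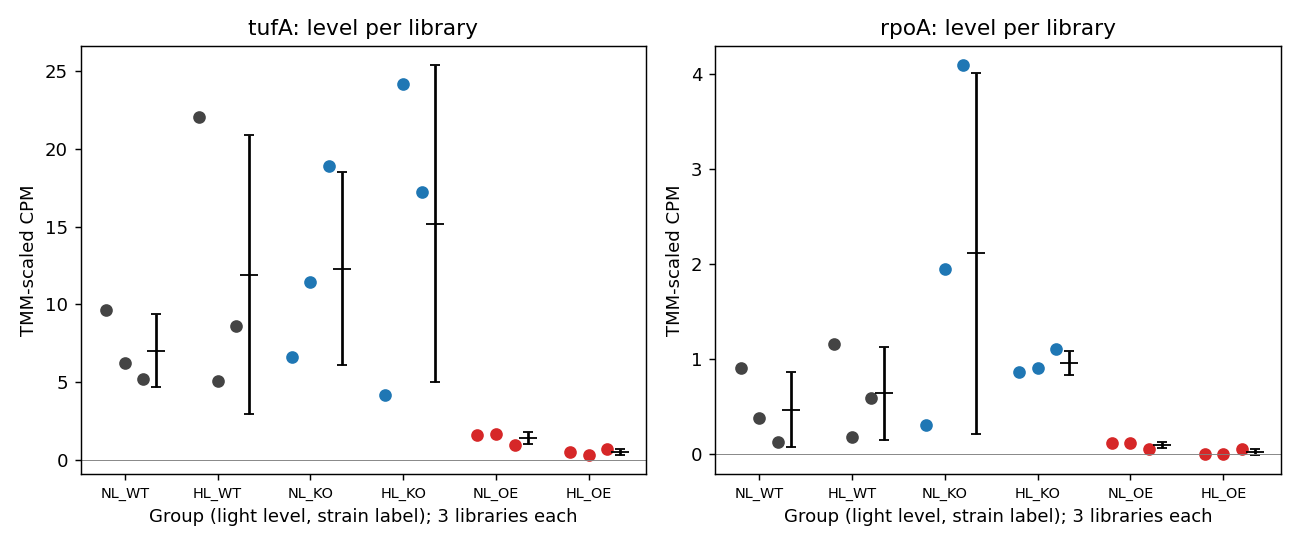
Levels of tufA (left) and rpoA (right) in TMM-scaled CPM, linear axes of different range. Points are the 18 libraries in order of replicate number, and the bar beside each group is its mean ± SD (n = 3). The OE libraries lie at 0.327 to 1.68 CPM for tufA, while the WT and KO libraries spread from 4.15 to 24.2.

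Ordered by mean CPM, tufA stood at 15.2 ± 10.2 in HL_KO, 12.3 ± 6.20 in NL_KO, 11.9 ± 8.97 in HL_WT, 7.03 ± 2.33 in NL_WT, 1.40 ± 0.396 in NL_OE and 0.501 ± 0.180 in HL_OE (mean ± SD, n = 3). Neighbours among the highest 4 of these did not separate beyond their spread. The gaps from NL_WT to NL_OE and from NL_OE to HL_OE were free of overlap. As a description of the contrast that chose the gene, mean tufA CPM in WT was 5.01-fold that in OE at normal light (95% counting interval 3.84 to 6.41) and 23.8-fold at high light (15.2 to 33.8). The intervals here and below cover counting error alone and leave out the spread between libraries. The reads carry no molecular identifiers, so copies of 1 molecule may be counted more than once, and the intervals may then be too narrow. Without HL_WT replicate 1 the OE to WT ratio at high light went from 0.0421 to 0.0734. Among all 9912 tested genes 10.9% were called lower in OE than in WT at normal light and 15.1% at high light, at an adjusted p below 0.05, and 11.4% and 17.0% were called higher. KO was 8.76-fold above OE in mean tufA CPM at normal light and 30.3-fold at high light, against the same OE libraries, and mean CPM in NL_OE was 2.80-fold that in HL_OE.

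The RNA polymerase gene rpoA rested on few counts in every group. WT had 13, 6 and 2 counts at normal light (0.897, 0.374 and 0.117 CPM) and 16, 3 and 10 at high light (1.15, 0.172 and 0.581 CPM). KO had 5, 26 and 56 at normal light (0.298, 1.94 and 4.09 CPM) and 14, 12 and 16 at high light (0.853, 0.904 and 1.10 CPM). NL_KO was thus the most scattered group, with replicate 3 higher than any other library and replicate 1 within the WT range. OE had 2, 2 and 1 counts at normal light (0.113, 0.108 and 0.0528 CPM). At high light OE had 0, 0 and 1, and a count of 0 allows up to 0.164 CPM in HL_OE replicate 1 and 0.163 in replicate 2 (3 counts). In counts NL_WT replicate 3 tied with the highest NL_OE libraries, so that library size alone kept these libraries apart in CPM. In all, NL_WT held 21 counts and NL_OE 5.

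**Figure D2:**
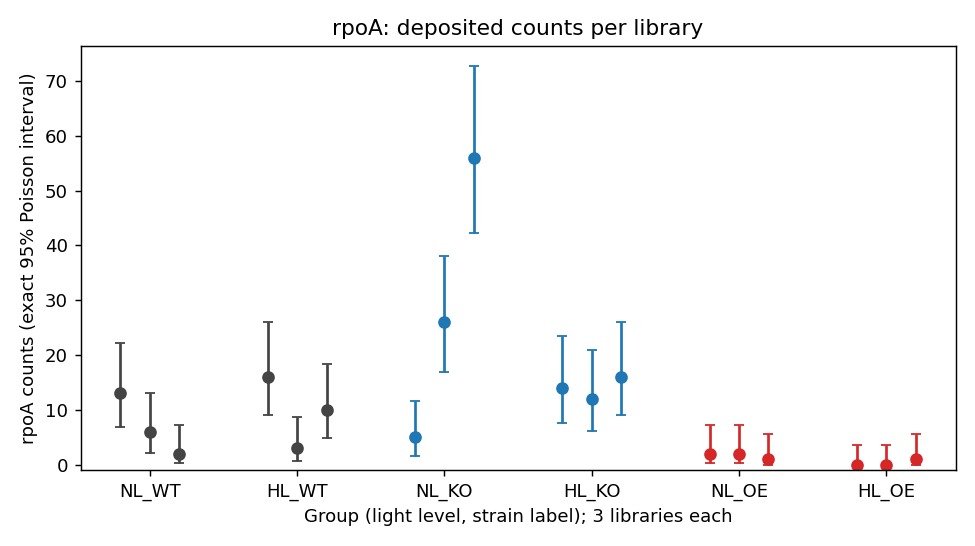
Deposited rpoA counts in each of the 18 libraries by group, in order of replicate number, with exact 95% Poisson intervals that cover counting error only. OE libraries hold 0 to 2 counts, HL_KO libraries 12 to 16, and NL_KO libraries spread from 5 to 56.

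Group means of rpoA in CPM were 2.11 ± 1.90 in NL_KO, 0.952 ± 0.130 in HL_KO, 0.634 ± 0.491 in HL_WT, 0.462 ± 0.397 in NL_WT, 0.0914 ± 0.0336 in NL_OE and 0.0176 ± 0.0305 in HL_OE (mean ± SD, n = 3). In this order each group overlapped or touched the next, except for NL_WT and NL_OE, whose tie in counts is given above. In the contrast that chose the genes, mean rpoA CPM in WT was 5.06-fold that in OE at normal light (95% counting interval 1.78 to 16.5, from 21 and 5 counts). At high light it was 36.0-fold (5.51 to 1358, from 29 counts and 1 count), so that only the lower end of that interval is informative. Without NL_WT replicate 1 the OE to WT ratio at normal light went from 0.198 to 0.373. At high light the ratio of 0.0277 went to 0.0467 without HL_WT replicate 1, to 0.0416 without HL_OE replicate 1 or 2 and to 0 without HL_OE replicate 3.

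Per length the difference between the genes was similar to that in counts. TPM (a level scaled for gene length and library total) of tufA exceeded that of rpoA 17.1-fold in NL_WT and 20.5-fold in HL_WT, 16.8-fold in HL_KO and 16.7-fold in NL_OE, as ratios of group means. In NL_KO the TPM ratio was 6.49. Counts gave 6.01 tufA counts per rpoA count in NL_KO (95% counting interval 4.78 to 7.63) against 15.7 in NL_WT (10.1 to 25.7). The NL_KO value came from replicates 2 and 3, which had 26 and 56 rpoA counts beside 153 and 259 of tufA, while replicate 1 had 5 beside 111. In HL_OE the TPM ratio of 31.0 rests on 1 rpoA count.

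The comparisons without OE libraries asked whether the KO-labelled strain or high light moved either gene, and edgeR called neither gene in any of the 5. The OE libraries were still in the fit and entered its estimate of the spread. A fit of the WT and KO libraries alone also called neither gene. That fit called 3 and 10 genes for KO against WT at normal and high light. For light in WT and in KO it called 466 and 3, and for the KO minus the WT response 0. For tufA the fitted KO to WT difference was 0.81 on the log2 scale (SE 0.58, adjusted p = 0.502, edgeR) at normal light, where 0.131% of all tested genes were called. The high-light difference was 0.35 (SE 0.57, adjusted p = 0.757, edgeR), where 3.63% of genes were called. For rpoA the normal-light value was 2.19 (SE 0.80, adjusted p = 0.408, edgeR; unadjusted p = 0.0147), and the high-light value 0.61 (SE 0.80, adjusted p = 0.694, edgeR). Without NL_KO replicate 1, the library with the fewest rpoA counts in its group, rpoA was called higher in KO at normal light (log2 fold change 2.72, adjusted p = 0.0362, edgeR), in a fit that called 689 genes in place of 13. Over all alternatives its adjusted p ran from 0.0362 to 0.922. The sign of the tufA value at high light turned to -0.15 without HL_KO replicate 2 and to -0.01 without HL_WT replicate 2.

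High against normal light gave for tufA a log2 fold change of 0.76 in WT (SE 0.58, adjusted p = 0.410, edgeR) and 0.30 in KO (SE 0.57, adjusted p = 0.790, edgeR). For rpoA it was 0.45 in WT (SE 0.86, adjusted p = 0.765, edgeR) and -1.13 in KO (SE 0.75, adjusted p = 0.394, edgeR). In those contrasts 13.3% and 2.85% of all tested genes were called. The KO response minus that of WT was -0.45 for tufA (SE 0.81, adjusted p = 0.794, edgeR) and -1.57 for rpoA (SE 1.14, adjusted p = 0.481, edgeR), with 0.605% of genes called. HL_WT replicate 1 decided the sign in WT, since without it tufA went to -0.03 and rpoA to -0.24, and rpoA also went to -0.02 without NL_WT replicate 3. The tufA value in KO went to -0.20 without HL_KO replicate 2 and to -0.00 without NL_KO replicate 1. The tufA value for the KO minus the WT response went to 0.33 without HL_WT replicate 1. Without NL_KO replicate 3, the library with the most rpoA counts, the rpoA value for light in KO went from -1.13 to -0.20 and that for the KO minus the WT response from -1.57 to -0.65.

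**Figure D3:**
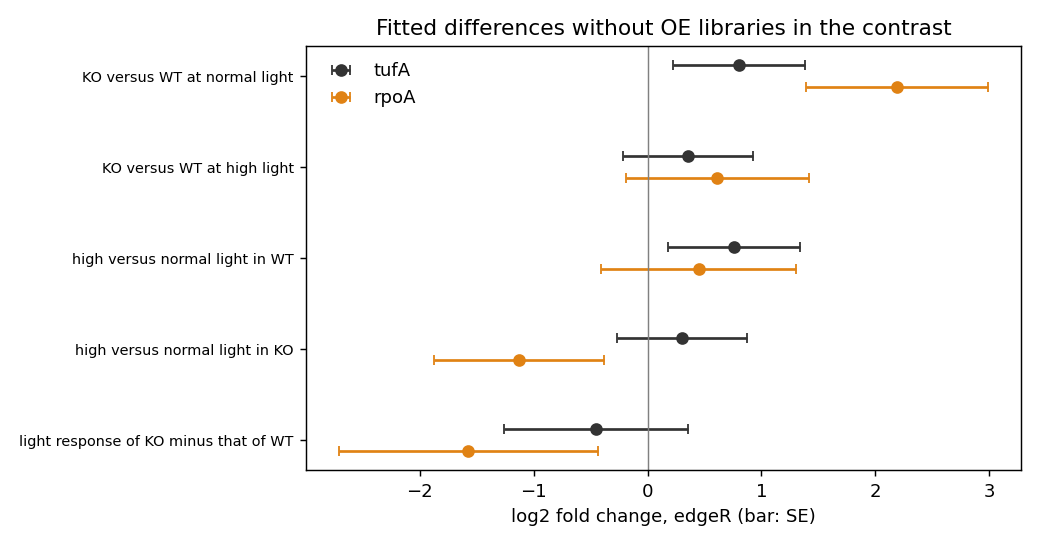
Fitted log2 fold changes of tufA and rpoA in the 5 comparisons whose contrast holds no OE library, with bars of 1 SE from the edgeR fit of all 18 libraries. The rpoA value for KO against WT at normal light, 2.19, is the farthest from 0, and no value passed the adjusted threshold.

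**Figure D4:**
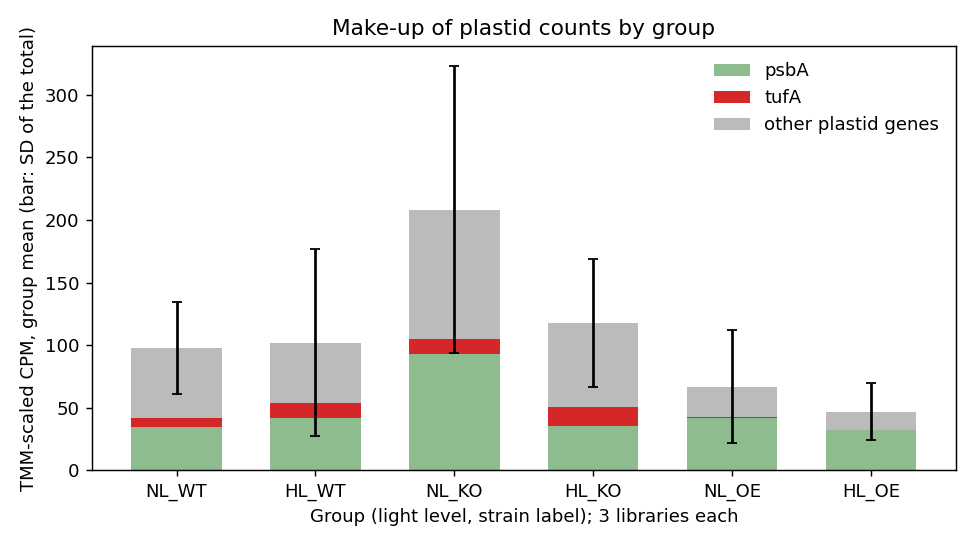
Mean TMM-scaled CPM of psbA, tufA and all other plastid genes together, stacked by group, with the SD of the plastid total as a bar (n = 3). The tufA layer is 7.03 to 15.2 CPM thick in WT and KO and 0.501 to 1.40 in OE, while psbA lies between 31.9 and 92.7 in all 6 groups.

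Mean plastid counts as a whole varied between groups, so tufA and rpoA were set against them. The strains overlapped in this total at both light levels, and its difference was not tested. All plastid genes together stood at 97.5 ± 36.9 CPM in NL_WT and 102 ± 74.7 in HL_WT, 208 ± 115 in NL_KO and 118 ± 51.2 in HL_KO, and 66.9 ± 45.2 in NL_OE and 46.8 ± 22.6 in HL_OE. psbA did not follow tufA, at 34.4 ± 6.51 CPM in NL_WT and 41.4 ± 38.8 in NL_OE, and 42.1 ± 27.3 in HL_WT and 31.9 ± 15.0 in HL_OE. Its difference was called at neither light level (log2 fold changes 0.27 and -0.40, adjusted p = 0.791 and 0.636, edgeR). The plastid genes other than psbA and tufA summed to 56.1 ± 29.1 CPM in NL_WT and 24.0 ± 7.75 in NL_OE, and to 47.8 ± 38.5 in HL_WT and 14.4 ± 7.47 in HL_OE. In this sum NL_OE (15.8 to 31.2 CPM) lay below NL_WT (36.8 to 89.5) and NL_KO (37.5 to 154) without overlap. HL_OE (9.15 to 23.0) lay below HL_KO (29.9 to 102) and overlapped HL_WT (22.9 to 92.1). These differences were not tested. For every 100 psbA counts there were 20.2 ± 3.49 tufA counts in NL_WT and 27.4 ± 7.48 in HL_WT, and KO had 15.6 ± 6.59 at normal and 40.5 ± 25.0 at high light. In OE there were 6.30 ± 4.90 at normal and 1.62 ± 0.178 at high light.

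As a share of all plastid counts tufA was steady in WT at normal light, at 6.93%, 7.42% and 7.5% (exact 95% binomial intervals 5.86 to 8.13, 6.08 to 8.95 and 6.07 to 9.15). In WT at high light it was 11.7%, 9.24% and 13.7% (10.5 to 13.0, 7.48 to 11.3 and 11.7 to 15.9), above each normal-light library. KO means were 6.56 ± 2.24% at normal and 11.7 ± 4.41% at high light, with overlap because HL_KO replicate 1 stood at 6.63% (5.19 to 8.33). OE means were 3.03 ± 2.14% at normal light and 1.11 ± 0.141% at high light. The share in NL_OE replicate 2, 5.08% (3.48 to 7.14), exceeded that of NL_KO replicate 2, 4.22% (3.59 to 4.92), so on this scale the OE and KO libraries met at normal light. NL_OE replicate 3 had the lowest share of its group, 0.804% (0.477 to 1.27), and the most psbA, 72.8% of its plastid counts.

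Over WT and KO together the tufA share was 11.6 ± 3.13% in the 6 high-light and 6.92 ± 1.49% in the 6 normal-light libraries. The difference of 4.70 percentage points had p = 0.025 by a two-sided exact permutation test within strains (smallest possible p 0.005), and 0.1 after adjustment over the 4 share tests, so it did not pass. It passed with psbA left out of the denominator, at 7.07 percentage points (adjusted exact permutation p = 0.04), and without HL_KO replicate 1, at 5.96 (adjusted exact permutation p = 0.02). As a share of plastid TPM in place of counts the difference was only 1.75 percentage points and did not pass. Over all alternatives the adjusted exact permutation p ran from 0.02 to 0.24. Between KO and WT the tufA share was 9.12 ± 4.2% against 9.42 ± 2.74% (n = 6 each; exact permutation p = 0.835 within light levels, also 0.835 adjusted). That small difference changed sign without HL_KO replicate 1, HL_WT replicate 3 or NL_KO replicate 2 (0.956, 0.231 and 0.282 percentage points).

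The rpoA share of plastid counts was 0.419 ± 0.239% in NL_WT and 0.618 ± 0.305% in HL_WT, and 0.858 ± 0.552% in NL_KO and 0.929 ± 0.410% in HL_KO. It was 0.201 ± 0.144% in NL_OE and 0.0244 ± 0.0423% in HL_OE. In HL_OE the libraries with 0 counts allow shares of up to 0.409% and 0.575% by the limit of 3 counts (the exact 95% binomial intervals end at 0.501% and 0.704%). By 3 counts these limits lie above HL_WT replicate 2, at 0.315%, but below the HL_WT mean, while the binomial end of 0.704% lies above that mean. A share below that of HL_WT replicate 2 was thus not detectable in those libraries at this depth. Over both light levels KO had 0.894 ± 0.437% and WT 0.518 ± 0.268% (n = 6 each; exact permutation p = 0.13, adjusted 0.26). High and normal light, over WT and KO, had 0.773 ± 0.366% and 0.639 ± 0.450% (n = 6 each; exact permutation p = 0.525, adjusted 0.7).

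**Figure D5:**
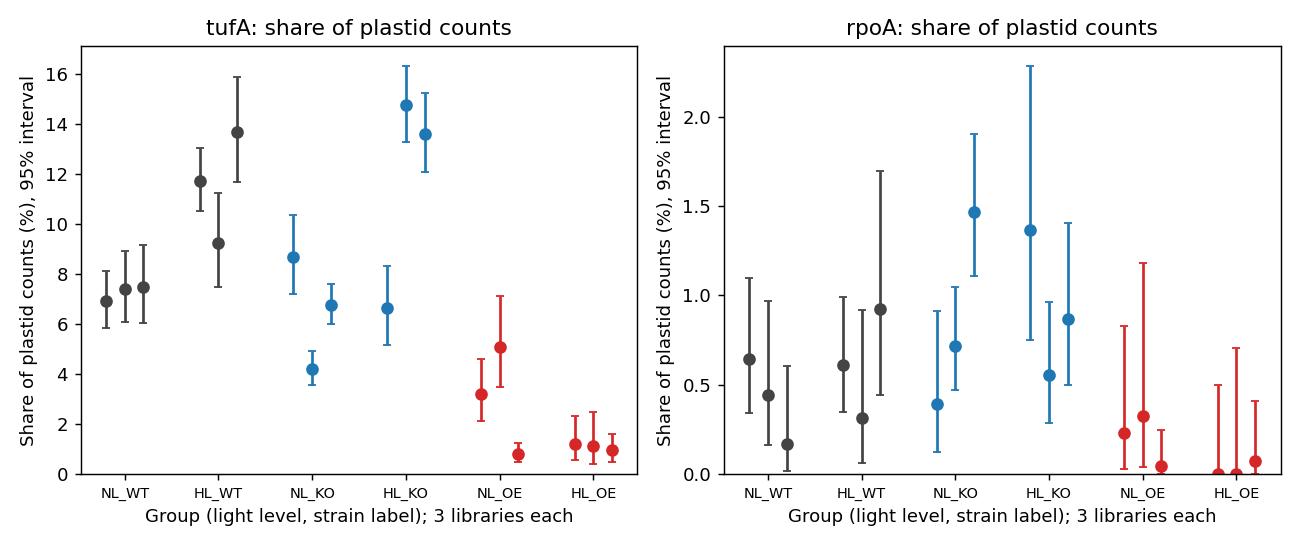
Share of all plastid counts held by tufA (left) and rpoA (right) in each library, in percent on linear axes of different range, with exact 95% binomial intervals for counting error. High-light WT libraries lie at 9.24 to 13.7% for tufA and high-light OE libraries at 0.952 to 1.23%.

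The other plastid genes for reading the genome were mostly too scarce to test. Of the remaining RNA polymerase subunits rpoB had 48 counts in all 18 libraries, rpoC1 36 and rpoC2 79, against 185 for rpoA, and rpoZ is not among the plastid symbols of the table. Per length rpoA was the highest of the 4 measured subunits in each WT and KO group, for example at 0.665 TPM in NL_WT beside 0.171 for rpoB, 0.167 for rpoC1 and 0.232 for rpoC2. In HL_WT rpoA stood at 0.895 TPM, rpoC2 at 0.0531 and rpoB at 0.0335, and rpoC1 had 0 counts in each library. Of these 3 subunits rpoC2 alone passed the filter. Its value was -3.19 for OE against WT at normal light (SE 1.25, adjusted p = 0.0774, edgeR), on 3 counts in NL_OE and 26 in NL_WT, and -0.74 at high light (SE 1.46, adjusted p = 0.719, edgeR). None of the 4 listed translation factor symbols and none of the 5 listed regulator symbols matched a plastid gene of the table.

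Plastid ribosomal protein genes, whose products form the particle that EF-Tu serves, numbered 43 in the table, and 6 passed the filter. In OE against WT 1 of the 6 was called lower at normal light and 2 at high light, beside 10.9% and 15.1% of all tested genes, and 0 were called higher. Their median log2 fold change was -1.18 at normal and -2.91 at high light, beside -0.00 and 0.02 over all tested genes. Genes could pass the filter through WT and KO counts alone, so these medians may be partly set by the filter. Summed over all 43 genes, the level was 4.30 ± 2.27 CPM in NL_WT and 1.99 ± 0.270 in NL_OE. At high light the sum was 8.28 ± 8.34 CPM in HL_WT and 1.77 ± 0.487 in HL_OE (mean ± SD, n = 3). rps10 was called at both light levels (-3.06 each, SE 1.00 and 0.88, adjusted p = 0.0389 and 0.0155, edgeR) and the plastid rps2 at high light (-3.98, SE 1.22, adjusted p = 0.0211, edgeR). DESeq2 and limma on TPM also called rps10 at both light levels. At high light limma did not call rps2 (adjusted p = 0.0506), and DESeq2 called rps2 and also rpl21 (adjusted p = 0.0198 by DESeq2 and 0.0609 by edgeR). The rps10 call at normal light was lost without HL_OE replicate 2, NL_OE replicate 1 or 3, or NL_WT replicate 1 or 3. At high light both calls were lost when HL_WT replicate 1 was left out, and likewise for HL_OE replicates 1 and 2. In KO against WT 0 of the 6 were called by edgeR, with medians of 1.53 at normal light (1 at an unadjusted p below 0.05) and 0.51 at high light (0), and limma on TPM also called 0. DESeq2 called 0 of the 6 at normal light and gave an adjusted p to rpl21 alone at high light, where that gene was not called.

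All 34 other plastid genes that passed the filter had negative fitted values in OE against WT at high light and 32 did at normal light. Their medians were -2.21 and -1.37, with 9 and 3 of the 34 called lower, beside 15.1% and 10.9% of all tested genes, and 0 called higher. A gene could pass the filter through its WT and KO counts alone, so low OE values among these genes may be partly set by the filter. The contrast is also the one that chose tufA and rpoA, so these signs and medians are a description and support nothing. Among the 36 tested plastid genes tufA had the 10th lowest fitted value at normal light and the 4th lowest at high light, and rpoA the 12th and the 3rd lowest.

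On the plastid chromosome of a RefSeq annotation of IMET1 (ASM5162214v2) tufA and rpoA lie close together, with 5 genes between them. The order from petF to rpoA is petF, rps10, tufA, rps7, rps12, rpl31, rps9, rpl13 and rpoA. rps10, beside tufA, had 31 counts in NL_WT and 52 in HL_WT, with 47 in NL_KO and 37 in HL_KO, but 4 in NL_OE and 7 in HL_OE, each summed over 3 libraries. rps7, on the other side, had 17, 27, 40 and 30 in the same groups, and 2 and 11 in OE. petF, the ferredoxin gene beyond rps10, had 9, 6, 13 and 5 counts, and 7 in each OE group. Beside rpoA, rpl13 had 3, 8, 13 and 20 counts and then 1 and 2 in OE. Between rpoA and tufA, rps9 had 59 counts over all 18 libraries and rps12 had 7. Whether reads that span neighbouring genes were assigned to one of them, the sources used here do not say.

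The genes whose levels followed tufA most closely over the 18 libraries were nuclear. Pearson correlations of log2 CPM with tufA, a description over libraries that share strain and depth, were 0.969 for NO20G02160, 0.969 for NO15G02760 and 0.966 for NO01G03160, of 9911 genes. Over the 12 WT and KO libraries alone they were 0.860, 0.829 and 0.867. These IDs carry no names in the files. Their levels moved far less than that of tufA, with NO15G02760 at 247 ± 14.3 CPM in NL_WT, 148 ± 3.68 in NL_OE, 267 ± 26.0 in HL_WT and 113 ± 1.66 in HL_OE. Of the 53 other tested organelle genes the nearest were ilvB, a gene for an enzyme of branched-chain amino acid synthesis (0.934), secA, for the motor of a protein translocase (0.921), and thiG, for an enzyme of thiamine synthesis (0.908). Within WT and KO thiG came closest of these, at 0.936, with 0.823 for ilvB and 0.725 for secA. There thiG also stood above the nuclear genes named. The order over all 18 libraries thus leans on the OE libraries, whose low values chose tufA.

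For rpoA the nearest genes were NO08G02630 (0.940), NO02G02880 (0.937) and NO03G03200 (0.933), and among organelle genes the mitochondrial rps2 (0.920), secA (0.920) and the mitochondrial cytochrome oxidase gene cox2 (0.916). Within WT and KO these values were 0.885, 0.858, 0.851, 0.872, 0.831 and 0.843 in the same order. tufA and rpoA correlated at 0.879 over the 18 libraries and at 0.690 over WT and KO, which placed tufA at rank 78 among the genes nearest to rpoA and rpoA at rank 269 among those nearest to tufA. The median correlation of the organelle genes with tufA was 0.768, beside -0.01 over all genes, and with rpoA it was 0.784, beside 0.01. Such values describe shared movement with the strain labels, and with 0 to 56 counts per library those of rpoA also carry counting error.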

How the data were processed

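RNA was sequenced as paired reads of 150 bases, per the labels' protocols. The authors deposited expected counts per gene, not normalized (at least 96.3% whole numbers in each library, rounded before testing), and TPM values, scaled by the authors for gene length and library total. Salmon, STAR, Trim Galore and Picard appear in the submitters' processing notes; the sources used here give no versions, build or annotation. All 160 organelle symbols of the RefSeq annotation matched.

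Tests on counts used edgeR 4.0.16 under R 4.3.3 (quasi-likelihood F test, robust, TMM factors 0.894 to 1.08, filterByExpr, which kept 9912 genes, 36 of them of the plastid), with 6 groups of 3 in one fit and Benjamini-Hochberg adjustment over all tested genes; a call means an adjusted p below 0.05. Shares were compared with exact permutation tests (scipy 1.17.1), adjusted over 4 tests. Ratios carry exact intervals for counting error. Alternatives used DESeq2 1.42.0, limma 3.58.1 on log2(TPM + 1) and log2(TPM + 0.1), other scalings, filters and fits, and each library left out. Correlations used log2 CPM with a prior count of 2. The method was tested on simulated data. Genes named are the members, listed pathway genes, annotated neighbours, called ribosomal protein genes and the 3 most correlated genes in all and among organelle genes. Members and lists were chosen with earlier results of these data known. No sequence is shown, since the reference used here holds none.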

Additional observations from a re-analysis of the deposited data

How the results depend on the processing

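With each library left out in turn, log2 fold changes ran from -0.15 to 1.10 (tufA, KO against WT at high light), -0.026 to 1.12 (tufA, light in WT), -0.20 to 0.75 (tufA, light in KO), -0.96 to 0.33 (tufA, KO minus WT response), -0.24 to 1.32 (rpoA, light in WT), -1.66 to -0.20 (rpoA, light in KO), -2.44 to -0.65 (rpoA, KO minus WT response) and 1.26 to 3.03 (rpoA, KO against WT at normal light); the cause was not tested. The tufA share difference ran from -1.08 to 0.956 percentage points for KO against WT and from 3.92 to 5.96 for light. For light it was 7.07 without psbA in the denominator and 1.75 as a share of plastid TPM. A fit with neither HL_KO replicate 2 nor HL_WT replicate 1 turned tufA to -0.026 (light in WT) and -0.20 (light in KO) and rpoA to -0.24 (light in WT), and gave 3.88 percentage points for the tufA share and light. Beyond these, the call of rpoA without NL_KO replicate 1 and that of the tufA share without HL_KO replicate 1, no alternative tried changed a direction or a call of these genes in the comparisons without OE. Of the calls of OE against WT that chose the genes, that of tufA at normal light was lost in 2 and that of rpoA at high light in 3 of the 18 fits that left out a library. rpoA failed the filter of 5 CPM, and also filterByExpr when only the WT groups were fitted, and gave no value there. No rRNA or tRNA is listed among the plastid genes, so that alternative equals the value given.

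The replicate number as a block gave 0.81 and 0.39 for tufA and 2.17 and 0.67 for rpoA (KO against WT at normal and high light), and 0.74, 0.32, 0.38 and -1.11 for light (tufA in WT and KO, rpoA in WT and KO) and -0.42 and -1.50 for the KO minus the WT response, with no call changed. Whether the numbers pair libraries was not settled, since differently numbered libraries were not compared. Deviations of same-numbered libraries correlated at -0.639 to 0.0408 for KO against WT and at -0.0884 to 0.333 for OE against WT. For light within WT and KO they correlated at 0.0813 to 0.512. Under the block 153 genes were called for light in KO, against 282.

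Counts of called genes moved far more than the values of tufA and rpoA. They ran from 3 to 689 around 13 (KO against WT, normal light), 0 to 876 around 360 (high light), 211 to 2042 around 1323 (light in WT), 0 to 1187 around 282 (light in KO) and 0 to 479 around 60 (KO minus WT response). Genes called lower in OE ran from 491 to 2461 around 1085 at normal and from 903 to 2057 around 1501 at high light. The counts of 0 came from edgeR fits of the compared groups only, with 871, 733 and 1031 genes at an unadjusted p below 0.05 (DESeq2 on all libraries called 876, 862 and 479), and, for the KO minus WT response, also from fits that left out libraries.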
